A study of Mus musculus with 32 samples.

Results

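The genes described here are 8 genes of lipoprotein and sterol handling in microglia: the apolipoproteins Apoe and Apoc1, lipoprotein lipase (Lpl), the sterol efflux pumps Abca1 and Abcg1, the liver X receptors Nr1h2 and Nr1h3, and cholesterol 25-hydroxylase (Ch25h). They were chosen by name, and all 8 were found by Entrez number among the 18588 genes of the deposited table. Microglia had been captured with CD11b magnetic beads from forebrains pooled from several female mice at 2, 4, 6 and 8 months of age, and RNA was sequenced as 4 libraries per genotype and age. rTg4510 mice carry human 4-repeat tau with the P301L mutation under a tetracycline-responsive element together with a tetracycline transactivator driven by the CaMKIIα promoter, so that tau is made in forebrain neurons and not in microglia by design. Wild type (WT) littermates carried neither transgene, so the effects of tau and of the transactivator cannot be told apart. The labels give the strain of these WT mice as 129/FVB F1. Of 32 libraries the authors kept 28, which leaves 4 per group at 2 and 6 months and 3 per group at 4 and 8 months. The paper says that the excluded libraries failed quality checks of the sequencing data. Values are log2 gene signals on which every library has the same median (5.63), and a difference of 1 is a change of 2 fold. Signals are not scaled to gene length, as far as the methods say, so levels are compared only within a gene. In pooled cells, a change in the share of cells that express a gene and a change in RNA per cell cannot be told apart. Gene signals of libraries within a group correlated with r of 0.936 to 0.966. The tau transgene is neuronal, and Mapt did not pass in these microglia at any age (log2 change -0.49, -0.63, -0.27 and -1.01 at 2, 4, 6 and 8 months, FDR 0.141 to 0.66). Mapt here is the mouse gene and the transgene is human tau, so these values do not show whether transgene RNA was present. Prnp, the prion protein gene, was higher in rTg4510 at 6 months (1.19, FDR 0.014, 7.97 to 8.24 against 6.51 to 7.11 in WT) and did not pass at 2, 4 and 8 months (0.23, 1.13 and 0.28, FDR 0.846, 0.0563 and 0.674).

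Cells that take up cholesterol from debris or lipoproteins store it as esters or export it. ABCA1 and ABCG1 move sterol out of the cell onto apolipoproteins such as ApoE, lipoprotein lipase frees fatty acids from the triglycerides of lipoproteins, and Apoc1 encodes a small apolipoprotein that restrains lipases and lipid transfer. Liver X receptors (LXRs) are nuclear receptors that bind oxysterols as partners of retinoid X receptors and activate Abca1, Abcg1, Apoe and Lpl, while CH25H makes the oxysterol 25-hydroxycholesterol.

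In the RefSeq annotation of GRCm38.p6 Apoe lies on the minus strand of chromosome 7 (chr7:19696244-19701310), with Apoc1 close to it (chr7:19689480-19692659). Nr1h2 is on the same chromosome (chr7:44549616-44553968), Lpl on chromosome 8 (chr8:68880555-68906932), Abca1 on chromosome 4 (chr4:53030789-53159988), Abcg1 on chromosome 17 (chr17:31057694-31117984), Nr1h3 on chromosome 2 (chr2:91184061-91202829) and Ch25h on chromosome 19 (chr19:34473783-34475148). Nr1h3 overlaps Acp2, which is also measured, so its reads may in part belong to that gene. RefSeq promoter windows, from 250 bases before to 50 bases after a transcript start, were given for 5 of the 8 genes (Apoe, Abca1, Nr1h2, Nr1h3 and Ch25h) as 8 windows. Each window was searched on both strands for an LXR direct repeat (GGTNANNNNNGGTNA), the PU.1 core GAGGAAGT, the lysosomal CLEAR core TCACGTGA and the sterol regulatory element TCACNCCAC. Of all 32851 windows in the RefSeq table, 0.718%, 3.2%, 0.974% and 1.24% held them, in that order. The window of Abca1 held the only match, an LXR direct repeat that reads GGTTACTACCGGTCA on the strand opposite to the gene, at chr4:53159948-53159962, with its first base in the gene's reading direction at -67 from the transcript start. That position is upstream of the transcript used for the window but inside the span that RefSeq gives to the whole gene. The windows of Abca1 and, for comparison, of the 2 genes with a window and a large change (Apoe, first window, and Ch25h) are shown 5′ to 3′ along the gene, with the matched bases in capitals. A window with no capitals holds none of the letters searched, which says nothing about binding of a factor.
Abca1 (chr4:53159846-53160145, minus strand): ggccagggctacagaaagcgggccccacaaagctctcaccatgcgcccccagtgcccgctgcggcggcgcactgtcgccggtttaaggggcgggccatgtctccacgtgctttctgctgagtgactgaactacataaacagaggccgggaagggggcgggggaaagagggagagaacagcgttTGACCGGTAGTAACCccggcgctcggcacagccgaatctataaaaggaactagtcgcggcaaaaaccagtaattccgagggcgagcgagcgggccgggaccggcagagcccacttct
Apoe (chr7:19699139-19699438, minus strand): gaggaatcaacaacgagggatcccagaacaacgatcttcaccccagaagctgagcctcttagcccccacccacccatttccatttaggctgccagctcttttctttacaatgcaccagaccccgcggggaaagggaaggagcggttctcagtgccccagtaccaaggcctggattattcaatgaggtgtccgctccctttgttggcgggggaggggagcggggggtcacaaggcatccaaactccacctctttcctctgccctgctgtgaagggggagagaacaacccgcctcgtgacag
Ch25h (chr19:34475099-34475398, minus strand): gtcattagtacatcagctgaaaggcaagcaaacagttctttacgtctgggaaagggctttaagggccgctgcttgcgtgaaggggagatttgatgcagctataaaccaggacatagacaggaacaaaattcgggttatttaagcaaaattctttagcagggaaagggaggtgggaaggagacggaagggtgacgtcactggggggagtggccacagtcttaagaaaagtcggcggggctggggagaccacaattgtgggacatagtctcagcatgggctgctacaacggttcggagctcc

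**Figure D1:**
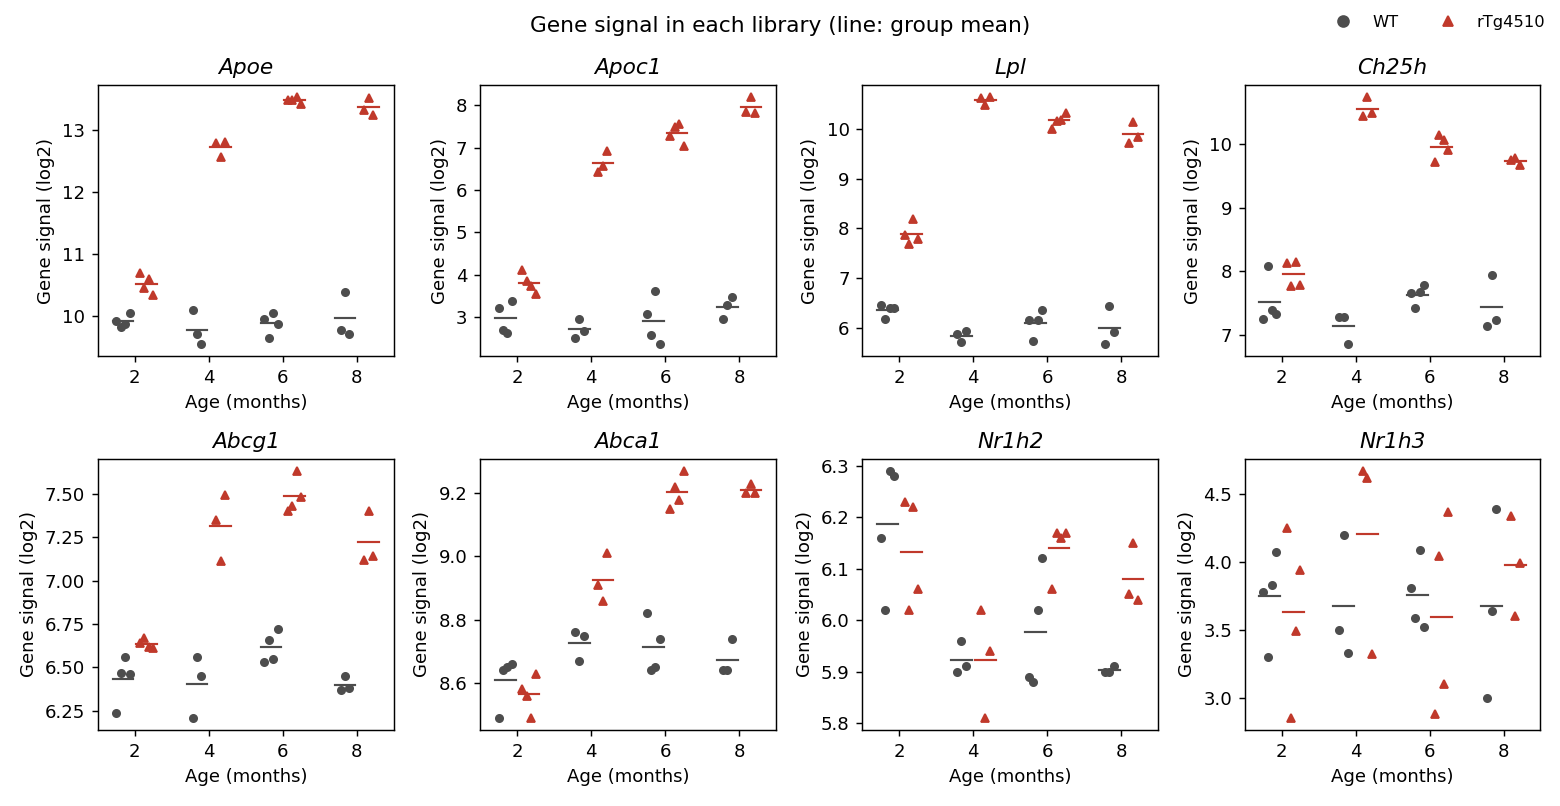
Gene signal (log2, vertical axis, each panel with its own range that does not start at 0) of the 8 genes by age (horizontal axis) in the 28 libraries, with a point per library (grey circles WT, red triangles rTg4510) and a line at each group mean. Apoe, Apoc1 and Lpl of rTg4510 lie above all WT libraries of the same age at every age, while the points of Nr1h3 overlap at every age.

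Compared to WT microglia, rTg4510 microglia carried more Apoe, Apoc1 and Lpl RNA at every age, and more Ch25h and Abcg1 RNA from 4 months on. For all 5 the difference between genotypes grew between 2 and 4 months. Of Apoe, Apoc1 and Lpl, only Lpl kept its result at 2 months under all alternatives that were run. Abca1 rose by less than 1.5 fold, and neither Nr1h2 nor Nr1h3 passed the test at any age. Differentially expressed genes (DEGs) are genes with a false discovery rate (FDR) under 0.05 and a change above 1.5 fold in limma's linear model over all genes. At 2 months 3 of the 8 genes were up-regulated DEGs (Apoe, Apoc1 and Lpl), beside 1.58% of all genes. At 4, 6 and 8 months 5 of 8 were up-regulated (the same 3 with Abcg1 and Ch25h), beside 9.47%, 11.3% and 10.5% of all genes. None of the 8 was a down-regulated DEG at any age, beside 0.403%, 4.33%, 8.54% and 5.37% of all genes at 2, 4, 6 and 8 months. By FDR alone 6 of 8 passed at 4, 6 and 8 months, Abca1 being the sixth, beside 23.2%, 34.1% and 25.7% of all genes. All rTg4510 libraries lay above all WT libraries in 4, 6, 6 and 7 of the 8 genes at 2, 4, 6 and 8 months, beside 7.49%, 19.1%, 18.2% and 21.2% of all genes. Because the genes were picked with earlier results of these data known, these shares describe the 8 genes and test nothing about them as a set.

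Apoe encodes the main apolipoprotein of the brain. In WT microglia its log2 signal was 9.91, 9.82, 9.87 and 10.05 at 2 months, 10.09, 9.7 and 9.54 at 4 months, 9.95, 9.64, 10.05 and 9.87 at 6 months, and 9.77, 10.39 and 9.71 at 8 months. In rTg4510 microglia it was 10.69, 10.45, 10.59 and 10.34 at 2 months, 12.79, 12.57 and 12.8 at 4 months, 13.49, 13.49, 13.53 and 13.42 at 6 months, and 13.33, 13.52 and 13.25 at 8 months. The genotypes did not overlap at any age, and the only WT library within the range of young rTg4510 libraries was replicate 2 of 8 months. The log2 change was 0.60 at 2 months (SE 0.133, 1.52 fold, FDR 0.00646), 2.94 at 4 months (SE 0.154, 7.69 fold, FDR 1.86e-11), 3.60 at 6 months (SE 0.133, 12.2 fold, FDR 4.31e-14) and 3.41 at 8 months (SE 0.154, 10.6 fold, FDR 1.91e-12). At 2 months the change sat close to the fold threshold, and without 1 of 3 libraries (rTg4510 replicate 1 or 3, or WT replicate 2) it was 0.54, 0.58 and 0.57 and no longer counted as a DEG. Among all genes Apoe ranked 52nd by size of increase at 4 months and 19th at 6 months. Within rTg4510 it rose by 2.20 from 2 to 4 months (SE 0.144, FDR 1.51e-09) and by a further 0.76 from 4 to 6 months (SE 0.144, FDR 0.00777), where it was 1 of the 0.312% of all genes that rose. The later rise was 0.68 with an FDR of 0.0712 without replicate 2 of 4 months, and 0.76 with an FDR of 0.0917 when only the groups compared were fitted. From 6 to 8 months the difference was -0.11 (SE 0.144, FDR 0.774).

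Apoc1 lay near the lowest values of a library in WT and well above them in rTg4510 from 4 months on. Its WT signals were 3.21, 2.69, 2.63 and 3.37 at 2 months, 2.51, 2.96 and 2.67 at 4 months, 3.07, 2.57, 3.61 and 2.36 at 6 months, and 2.95, 3.28 and 3.48 at 8 months. The rTg4510 signals were 4.12, 3.85, 3.73 and 3.55 at 2 months, 6.42, 6.56 and 6.92 at 4 months, 7.28, 7.48, 7.55 and 7.04 at 6 months, and 7.84, 8.19 and 7.83 at 8 months. No libraries of the 2 genotypes overlapped at any age, and the 4 ages of rTg4510 followed each other from lowest to highest with no overlap. The fitted log2 change was 0.83 at 2 months (SE 0.231, FDR 0.0332), 3.92 at 4 months (SE 0.267, FDR 8.32e-10), 4.44 at 6 months (SE 0.231, FDR 6.68e-12) and 4.72 at 8 months (SE 0.267, FDR 5.32e-11). Low values lie on steps that look like log2 of a count plus 1.5, and a signal of 3 counts above a library's lowest value would be 2.82 to 3.51. All 3 WT libraries of 4 months were at or under that level, so the fold there is better read as a bound: Apoc1 was at least 11.5-fold higher in rTg4510, against 3 counts in each WT library. At 6 months 1 of 4 WT libraries was above 3 counts (4.58, beside 2.08, 1.46 and 0.947) and at 8 months 2 of 3 were (3.58 and 4.11, beside 2.36), so the sizes there also rest on low WT values. With values under the 3-count level raised to it, an alternative chosen after seeing the data, the log2 change was 3.98 at 6 months in place of 4.44, and 4.65 at 8 months in place of 4.72. The call at 2 months was weak: leaving out 1 of 5 libraries of that age (rTg4510 replicate 1, 2 or 3, WT replicate 2 or 3) raised its FDR to 0.119, 0.0714, 0.0612, 0.116 and 0.123. Raising low values in the same way brought it to 0.54 (FDR 0.0281). Within rTg4510 Apoc1 rose by 2.83 from 2 to 4 months (SE 0.25, FDR 1.05e-07), while the differences of 0.70 from 4 to 6 months and 0.62 from 6 to 8 months had FDR values of 0.185 and 0.27. With low values raised the first of these was also 0.70 but had an FDR of 0.0219 and counted as a DEG.

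Lpl showed another course, with its peak at 4 months. In WT microglia the signals were 6.45, 6.18, 6.39 and 6.4 at 2 months, 5.88, 5.71 and 5.94 at 4 months, 6.16, 5.74, 6.15 and 6.35 at 6 months, and 5.67, 6.43 and 5.91 at 8 months. In rTg4510 microglia they were 7.87, 7.69, 8.19 and 7.78 at 2 months, 10.62, 10.49 and 10.64 at 4 months, 10.01, 10.16, 10.19 and 10.33 at 6 months, and 9.72, 10.15 and 9.84 at 8 months. All rTg4510 libraries were above all WT libraries, by at least 1.24 at 2 months, and the 4-month libraries were above all other rTg4510 libraries. The log2 change was 1.53 at 2 months (SE 0.148, 2.88 fold, FDR 2.29e-06), 4.74 at 4 months (SE 0.171, 26.7 fold, FDR 5.9e-14), 4.07 at 6 months (SE 0.148, 16.8 fold, FDR 3.46e-14) and 3.90 at 8 months (SE 0.171, 14.9 fold, FDR 1.31e-12). Its change at 2 months was the 22nd largest increase of all genes at that age, and the change at 4 months was the 4th. From 4 to 6 months the signal within rTg4510 differed by -0.41 (SE 0.16, FDR 0.232) with no overlap of the libraries, and the genotype effect differed by -0.67 (SE 0.226, FDR 0.36). The fall after 4 months therefore did not pass the test over all genes.

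Ch25h followed the same outline as Lpl but was not a DEG at 2 months. WT signals were 7.26, 8.08, 7.4 and 7.33 at 2 months, 7.28, 7.28 and 6.86 at 4 months, 7.66, 7.42, 7.67 and 7.78 at 6 months, and 7.14, 7.95 and 7.24 at 8 months. In rTg4510 they were 8.13, 7.77, 8.15 and 7.78 at 2 months, 10.44, 10.73 and 10.49 at 4 months, 9.72, 10.14, 10.06 and 9.9 at 6 months, and 9.74, 9.78 and 9.67 at 8 months. At 2 months WT replicate 2 lay within the rTg4510 range, and at the later ages the groups were apart. The log2 change was 0.44 at 2 months (SE 0.181, FDR 0.203), 3.41 at 4 months (SE 0.209, 10.6 fold, FDR 2e-10), 2.32 at 6 months (SE 0.181, 5 fold, FDR 1.8e-09) and 2.29 at 8 months (SE 0.209, 4.88 fold, FDR 3.35e-08). Without that WT library the change at 2 months was 0.63 with an FDR of 0.0299, a call that rests on leaving it out. Between 4 and 6 months the genotype effect differed by -1.09 (SE 0.276, FDR 0.153) and the rTg4510 signal by -0.60 (SE 0.195, FDR 0.135), neither of which passed. Of 10 other listed genes of oxysterol handling 5 were measured, and 0 of these 5 were DEGs at any age. At 2, 4, 6 and 8 months 1.58%, 9.47%, 11.3% and 10.5% of all genes were up-regulated. Another 0.403%, 4.33%, 8.54% and 5.37% were down-regulated, so 0 of 5 is close to the share of all genes. Among the 5 were Cyp27a1, which makes 27-hydroxycholesterol (0.07, -0.02, 0.13 and 0.21 at 2, 4, 6 and 8 months), and Gpr183, a receptor for an oxysterol made from 25-hydroxycholesterol (-0.26, -0.09, -0.23 and 0.14).

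Abcg1, which hands cholesterol on to lipid particles, changed by less than 2 fold. WT signals of Abcg1 were 6.24, 6.47, 6.56 and 6.46 at 2 months, 6.21, 6.56 and 6.45 at 4 months, 6.53, 6.66, 6.55 and 6.72 at 6 months, and 6.37, 6.45 and 6.38 at 8 months. Abcg1 in rTg4510 read 6.64, 6.67, 6.62 and 6.61 at 2 months, 7.35, 7.11 and 7.49 at 4 months, 7.4, 7.43, 7.63 and 7.48 at 6 months, and 7.12, 7.4 and 7.14 at 8 months. The libraries of the genotypes did not overlap at any age, though by only 0.05 at 2 months. The log2 change was 0.20 at 2 months (SE 0.0866, FDR 0.222), 0.90 at 4 months (SE 0.1, 1.87 fold, FDR 5.79e-07), 0.87 at 6 months (SE 0.0866, 1.82 fold, FDR 6.68e-08) and 0.82 at 8 months (SE 0.1, 1.77 fold, FDR 1.59e-06). Abcg1 was thus up-regulated to a like extent at the last 3 ages, and the differences between them (-0.04 from 4 to 6 months, interval -0.31 to 0.24, and -0.04 from 6 to 8 months, interval -0.32 to 0.23) did not pass.

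Abca1, which loads lipid onto apolipoproteins with little lipid, had small changes with small errors. Its WT signals were 8.49, 8.64, 8.65 and 8.66 at 2 months, 8.76, 8.67 and 8.75 at 4 months, 8.82, 8.64, 8.65 and 8.74 at 6 months, and 8.64, 8.64 and 8.74 at 8 months. The rTg4510 signals were 8.58, 8.56, 8.49 and 8.63 at 2 months, 8.91, 8.86 and 9.01 at 4 months, 9.15, 9.22, 9.18 and 9.27 at 6 months, and 9.2, 9.23 and 9.2 at 8 months. At 2 months the groups overlapped, and from 4 months on rTg4510 was above WT in all libraries. The log2 change was -0.04 (SE 0.0464, FDR 0.732), 0.20 (SE 0.0535, FDR 0.00877), 0.49 (SE 0.0464, FDR 2.72e-08) and 0.54 (SE 0.0535, FDR 1.01e-07) at 2, 4, 6 and 8 months, the last 3 past the FDR threshold but at 1.15, 1.41 and 1.45 fold under the fold threshold. The pass at 4 months was lost under quantile normalization (0.07, FDR 0.412), with only the groups compared (FDR 0.106), and without rTg4510 replicate 4 (0.16, FDR 0.0632) or WT replicate 2 (0.17, FDR 0.0515) of that age. Within rTg4510 Abca1 rose by 0.65 from 2 to 8 months (SE 0.0501, FDR 8.12e-09), which counts as a DEG, beside 5.72% of all genes that rose in that comparison. Abcg1 rose by 0.58 there (SE 0.0935, FDR 9.47e-05), just under 1.5 fold, and passed that threshold in 3 of 28 fits with a library left out.

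The liver X receptors themselves gave no DEG. The highest and lowest Nr1h2 signals over all 28 libraries were 6.29 and 5.81, and the log2 change was -0.06 (interval -0.19 to 0.08), 0.00 (-0.15 to 0.15), 0.16 (0.03 to 0.29, FDR 0.0612) and 0.18 (0.02 to 0.33, FDR 0.0886) at 2, 4, 6 and 8 months. At 8 months all rTg4510 libraries (6.05, 6.15 and 6.04) were above the WT libraries (5.9, 5.9 and 5.91). Nr1h3 was low and variable, between 2.85 and 4.67, and its log2 change was -0.12 (interval -0.93 to 0.69), 0.53 (-0.41 to 1.46), -0.16 (-0.97 to 0.65) and 0.30 (-0.63 to 1.24). The intervals of Nr1h3 reach past 1.5 fold in both directions at 2, 6 and 8 months, so changes of that size were not detectable in these libraries. For Nr1h2 the 95% intervals stay within 1.5 fold at each age.

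**Figure D2:**
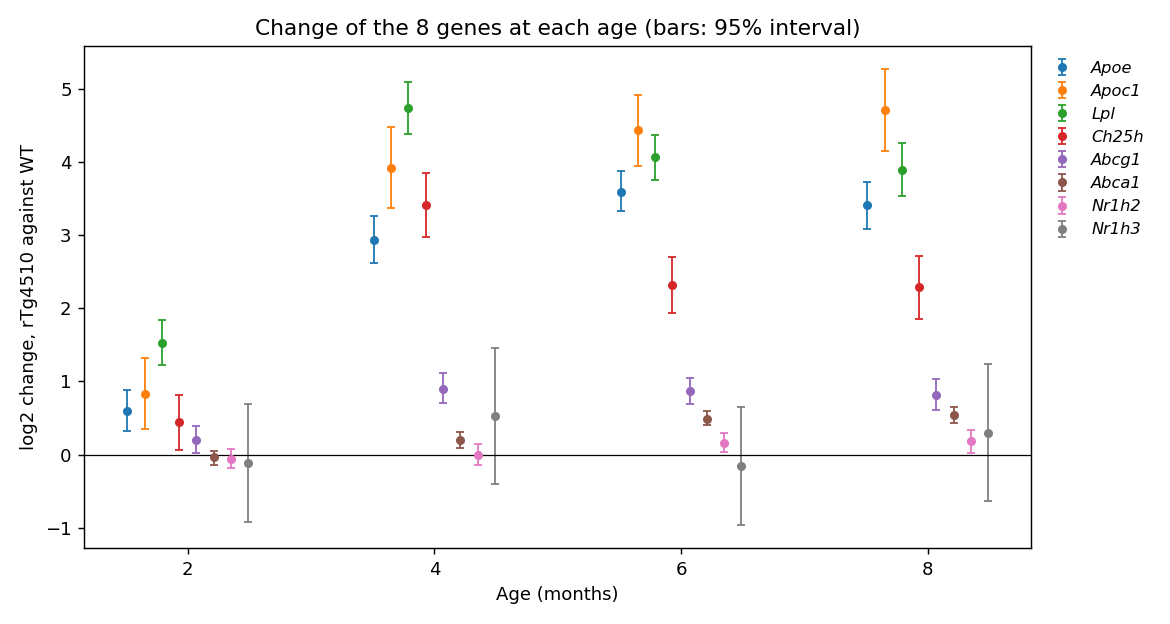
log2 change of rTg4510 against WT (vertical axis) at each age (horizontal axis, ages evenly spaced) for the 8 genes, with 95% intervals from the linear model as bars. Lpl and Ch25h are highest at 4 months (4.74 and 3.41), Apoe at 6 months (3.60) and Apoc1 at 8 months (4.72), and the point of Apoc1 at 4 months rests on WT libraries near their lowest values.

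Did the genotype effect itself grow with age? Between 2 and 4 months it did for 5 of the 8 genes, by 2.34 for Apoe (SE 0.204, FDR 2.91e-07), 3.09 for Apoc1 (SE 0.353, FDR 1.02e-05), 3.21 for Lpl (SE 0.226, FDR 1.55e-08), 2.97 for Ch25h (SE 0.276, FDR 7.62e-07) and 0.70 for Abcg1 (SE 0.132, FDR 0.00215), beside 3.77% of all genes whose effect was higher at 4 months. For Abca1 it grew by 0.24 (SE 0.0708, FDR 0.0392), less than 1.5 fold, beside 7.33% of all genes that passed the FDR in either direction. That pass of Abca1 was lost with moderated variances (FDR 0.0663), the replicate block (0.0739), only the groups compared (0.102), all 32 libraries (0.22, FDR 0.139) and quantile normalization (0.17, FDR 0.193). Nr1h2 (0.06, FDR 0.815) and Nr1h3 (0.64, FDR 0.619) did not pass. Between 4 and 6 months, and between 6 and 8 months, the effect of none of the 8 genes differed by the same limma test, with 4 and 0 of them at an unadjusted p under 0.05. Few of all 18588 genes passed there: the effect was higher for 7 and 0 and lower for 22 and 0. An unadjusted p under 0.05 in that test held for 1514 and 841 of all genes. With moderated variances 0 of the 8 genes passed between these ages as well.

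Changes with age that counted as DEGs were on the rTg4510 side. From 2 to 4 months within rTg4510 the same 5 genes rose, beside 4.03% of all genes, and by FDR alone Abca1 (0.36, FDR 3.37e-05) and Nr1h2 (-0.21, FDR 0.0463) passed too, beside 15.2% of all genes. The pass of Nr1h2 was lost with moderated variances (FDR 0.084), all 32 libraries (-0.17, FDR 0.397), only the groups compared (FDR 0.219) and quantile normalization (FDR 0.0568). With all 32 libraries the rise of Abcg1 was 0.46 (FDR 0.035), under 1.5 fold, in place of 0.68. From 4 to 6 months Apoe rose as given above, and Abca1 passed the FDR alone with 0.28 (SE 0.0501, FDR 0.00559), beside 1.73% of all genes. With only the groups compared the FDR of Abca1 was 0.172, and without replicate 2 of 4 months it was 0.0567 (0.24). Within WT none of the 8 was a DEG between neighbouring ages or between 2 and 8 months. Between 2 and 8 months 1.27% of all genes were DEGs in either direction. Between neighbouring WT ages hardly any of the 18588 genes was a DEG. From 2 to 4 months 7 rose and 2 fell, from 4 to 6 months 1 rose and 0 fell, and from 6 to 8 months there were 0. By FDR alone Nr1h2 was lower in WT at 8 than at 2 months (-0.29, SE 0.069, FDR 0.023), beside 4.21% of all genes, but not with all 32 libraries (-0.16, FDR 0.81), only the groups compared (FDR 0.221) or 75th percentile scaling (-0.25, FDR 0.0611). Between 2 and 4 months WT Lpl differed by -0.51 (SE 0.16, FDR 0.238), with the libraries of the 2 ages apart.

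Ordered by group mean, the 4 WT groups were the lowest for Apoe, Apoc1, Lpl, Ch25h and Abcg1, with each WT group overlapping the next. Above them rTg4510 of 2 months came next in all 5. The order then was 4, 8 and 6 months for Apoe with the last 2 overlapping, 4, 6 and 8 months for Apoc1 with none overlapping, 8, 6 and 4 months for both Lpl and Ch25h with 8 and 6 months overlapping, and 8, 4 and 6 months for Abcg1 with each overlapping the next. For Abca1 the rTg4510 libraries of 2 months were the lowest group, and those of 6 and 8 months shared the top.

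Across the 28 libraries the signal most like that of Apoe belonged to Trpm6, Cd63-ps and Lox, with Pearson r of 0.992, 0.99 and 0.99. Those most like Apoc1 were Lox (0.989), Trpm6 (0.987) and Apoe (0.986). Lpl was most like Ank (0.992), Klrb1a (0.991) and Gnas (0.988), and Ch25h most like Grn (0.978), Cst7 (0.975) and Glb1 (0.974). For Abcg1 the closest were Cd68 (0.978), Tns3 (0.968) and Serpine2 (0.965), and for Abca1 Fnip2 (0.956), Galc (0.95) and Vps13c (0.949). Likeness was weaker for Nr1h2, with 0.717 for Fam117a, 0.701 for Rnps1-ps and 0.697 for Elavl4, and for Nr1h3, with 0.611 for Atp5l-ps2, 0.603 for Lat and 0.6 for Prdm4. These values are descriptions, since libraries of one group share genotype and age. Pseudogene entries such as Cd63-ps may hold reads of their parent genes. After subtraction of the group means the r between Apoe and Lpl was 0.625 (0.958 before), between Apoe and Ch25h 0.498 (0.946 before), between Apoe and Apoc1 0.365 (0.986 before) and between Apoe and Abca1 0.0114 (0.899 before). Nr1h2, which was not a DEG, then had r of 0.547 with Lpl, 0.411 with Abcg1, 0.374 with Apoe and -0.0059 with Ch25h. Such values were thus not limited to the up-regulated genes. Other pairs of up-regulated genes had low r, such as Apoc1 and Ch25h (0.0082), Apoe and Abcg1 (0.0213) and Apoc1 and Lpl (0.153). The r within groups was not computed for pairs of all genes, so a shared likeness of these genes was not tested.

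**Figure D3:**
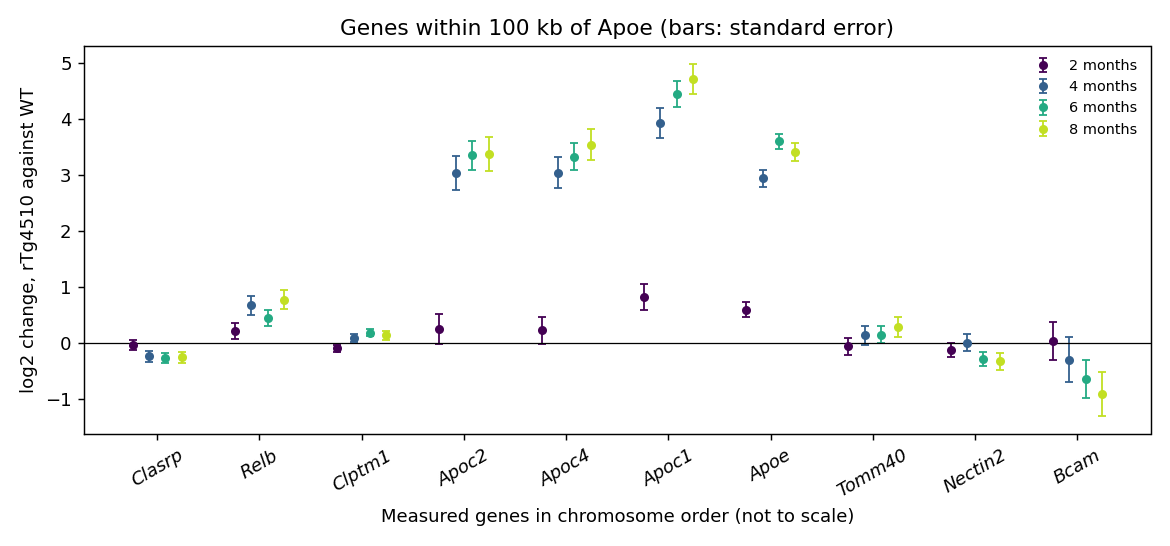
log2 change of rTg4510 against WT (vertical axis) of the 10 measured genes within 100 kb of Apoe, in chromosome order and not to scale (horizontal axis), with a point per age and standard errors as bars. Apoc2, Apoc4, Apoc1 and Apoe stand together above 2.9 from 4 months on, and the genes on both sides (Clptm1 and Tomm40) lie within 0.3 of 0.

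Apoe and Apoc1 belong to a gene cluster, and the genes within 100 kb of Apoe, a window chosen after seeing the data, were looked at for that reason. Of 15 annotated genes there 10 were measured, Apoe and Apoc1 among them. At 2, 4, 6 and 8 months 2, 5, 4 and 5 of the 10 were up-regulated, beside 1.58%, 9.47%, 11.3% and 10.5% of all genes. These were Apoc1 and Apoe at every age, the apolipoprotein genes Apoc2 (3.03, 3.35 and 3.37 at 4, 6 and 8 months) and Apoc4 (3.04, 3.33 and 3.54), and the NF-κB subunit gene Relb at 4 and 8 months (0.68, FDR 0.00558, and 0.78, FDR 0.00165). Apoc2 encodes the activator of lipoprotein lipase. In WT both genes were within 3 counts of the lowest value in all libraries of 4, 6 and 8 months, at 1.49 to 2.52 for Apoc2 and 1.58 to 2.80 for Apoc4, while rTg4510 libraries were at 4.57 to 5.68 and 4.81 to 5.92. Against 3 counts in each WT library Apoc2 was at least 3.04, 4.05 and 4.96-fold higher and Apoc4 at least 3.5, 5.04 and 4.3-fold higher at 4, 6 and 8 months. Both overlap the annotated gene Gm44805, so their reads cannot be told apart from its reads. The direct neighbours on either side were not DEGs. The values of Clptm1 were -0.09, 0.09, 0.19 and 0.14 at 2, 4, 6 and 8 months, of which the third passed the FDR alone (0.0244), and those of Tomm40 were -0.05, 0.14, 0.15 and 0.29 (FDR 0.25 to 0.927).

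Among 83 other measured genes of lipoprotein and sterol handling, 1, 7, 12 and 13 were up-regulated at 2, 4, 6 and 8 months (1.2%, 8.43%, 14.5% and 15.7%, beside 1.58%, 9.47%, 11.3% and 10.5% of all genes). Of the same 83 genes 1, 7, 8 and 3 were down-regulated (1.2%, 8.43%, 9.64% and 3.61%, beside 0.403%, 4.33%, 8.54% and 5.37% of all genes), with medians of -0.02, -0.11, -0.05 and -0.02 beside medians of all genes of 0.014, -0.037, -0.035 and -0.014. The same shares of all genes are the background for the counts of each list that follows. Genes for cholesterol ester turnover and lysosomal egress of cholesterol (18 measured) had 1, 4, 5 and 7 up-regulated and 0, 0, 2 and 1 down-regulated members. Among these were Nceh1, a cholesterol ester hydrolase (0.55, 1.63, 1.92 and 1.91, with FDR 0.0013 but under 1.5 fold at 2 months), Npc2, which carries cholesterol inside lysosomes (0.60, 1.30, 1.52 and 1.42), and Soat1, which esterifies cholesterol (0.06, 0.92, 1.18 and 1.09, the first not a DEG). Osbpl6, an oxysterol binding protein gene, was lower at 6 months (-1.21, FDR 0.000997), as was Stard3, a cholesterol carrier of late endosomes (-0.66, FDR 1.31e-07). The only up-regulated gene at 2 months among the 83 was Npc2 (FDR 4.9e-05), and the only down-regulated one was Lipc (-0.66, FDR 0.0382). Of 6 other apolipoproteins measured, Apoc2 and Apoc4 were up-regulated from 4 months on, and Apoa2 was lower at 4 months (-1.08, FDR 2.53e-06) but not at 6 or 8 months (-0.21 and 0.19).

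Other lipases and their regulators had 0, 0, 1 and 1 up-regulated and 1, 2, 3 and 0 down-regulated of 11 measured. Lipa, the lysosomal acid lipase, rose by 0.68 at 6 months (FDR 6.67e-08) and 0.74 at 8 months (FDR 2.54e-07). Lipc, hepatic lipase (-0.97, FDR 0.000335), and Mgll, monoacylglycerol lipase (-0.59, FDR 5.89e-05), were lower at 6 months. Lipc was near its libraries' lowest values in 9 of 28. Lipoprotein receptors and their regulators had 0, 0, 2 and 2 up and 0, 3, 1 and 0 down of 12. Sorl1, a sorting receptor (0.76, FDR 1.67e-06), and Scarb1, a receptor for high-density lipoprotein (0.68, FDR 0.000991), rose at 6 months, and Sorl1 also at 8 months (0.67, FDR 7.94e-05).

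Of 13 other textbook LXR targets measured, 0, 3, 3 and 3 were up-regulated and 0, 2, 1 and 1 down-regulated. At 4, 6 and 8 months the members that rose were Apoc2, Apoc4 and the phosphodiesterase gene Smpdl3a (0.91, 1.08 and 1.05), while the transglutaminase gene Tgm2 fell (-0.70, -1.08 and -0.79), joined at 4 months by Mylip (-0.64, FDR 1.78e-06), which encodes a ubiquitin ligase. Srebf1 (-0.13, 0.02, 0.17 and 0.30), which drives fatty acid synthesis, and Scd2 (0.00, 0.40, 0.14 and 0.06), a fatty acid desaturase gene, were not DEGs. Of 13 receptor partners and coregulators only Rxrg was a DEG, at 6 months (2.13, FDR 8.81e-05) and 8 months (3.02, FDR 9.45e-06). Its WT libraries of these ages were all near their lowest values, and against 3 counts Rxrg was at least 1.86 and 3.64-fold higher. The other ABC transporters had Abca5 up (0.70, FDR 0.00133) and Abca13 down (-0.92, FDR 0.0219) at 6 months, of 11 measured.

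**Figure D4:**
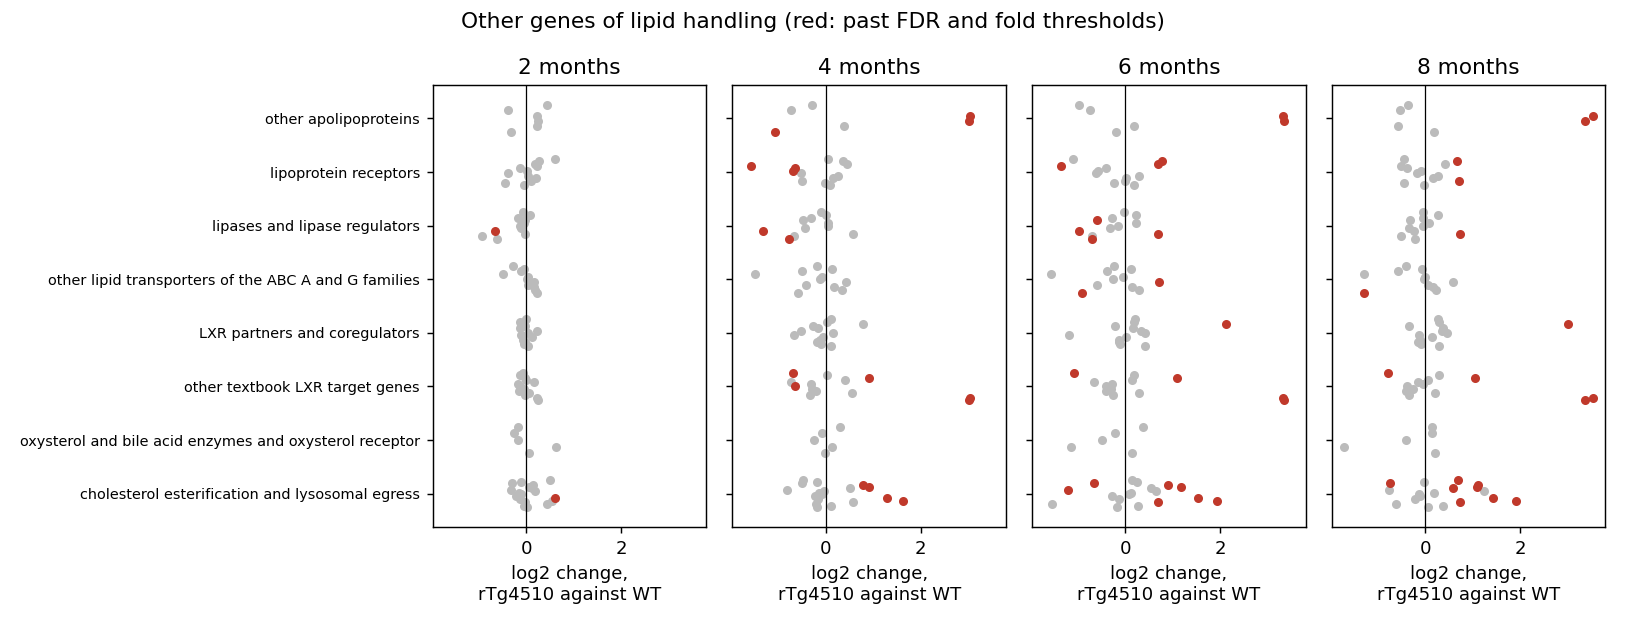
log2 change of rTg4510 against WT (horizontal axis) of the other measured genes of lipid handling at each age, by list (rows), with a red point for a DEG and a grey point for any other gene. The pair of points above 3 in the lists of apolipoproteins and LXR targets is Apoc2 and Apoc4, and Rxrg reaches 3.02 at 8 months.

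Astrocytes also make Apoe RNA, so markers of other cells are set beside these values. The summed level of 10 astrocyte markers had group medians of 10.24, 9.97, 9.78 and 9.95 in rTg4510 and 10.54, 10.39, 10.41 and 10.63 in WT at 2, 4, 6 and 8 months, so this sum was not higher in rTg4510. Signals were added on the linear scale, so high markers weigh most, above all Slc1a3 (group means 9.04 to 9.87), and not all 10 alike. In WT of 8 months the sum ranged from 10.48 to 11.76. The highest sum there exceeds what Slc1a3 (mean 9.75, SD 0.202) can give, and Aqp4 (8.76, SD 0.886) and Gja1 (8.18, SD 1.66) varied more. Slc1a3 itself was lower in rTg4510 at 6 and 8 months (-0.66, FDR 7.27e-07, and -0.71, FDR 2.56e-06). The other summed levels are weighted in the same way. Gfap, a marker of reactive astrocytes, was higher in rTg4510 at 6 and 8 months (1.52, FDR 0.00043, and 1.80, FDR 0.000444), whereas Aqp4 was lower (-1.22, FDR 0.0265, and -1.38, FDR 0.0369). Of these markers Aldh1l1 was at or under the 3-count level in 14 of the 28 libraries, Sox9 and Slc4a4 in 9 each, and Aqp4, Slc1a3, Gja1 and S100b in 0. Border macrophage markers (6 measured) had medians of 10.33 to 10.53 in rTg4510 and 10.61 to 10.81 in WT. Monocyte and neutrophil markers (10 measured) were lower in rTg4510 at 6 months, with 7 down-regulated and a median summed level of 9.33 against 10.44, and at 8 months, with 5 down-regulated and 9.70 against 10.68. All 10 microglia markers were above the 3-count level in all 28 libraries. Tmem119 (-0.74, -0.78 and -0.72) and Sall1 (-0.77, -0.86 and -0.81) were lower at 4, 6 and 8 months. Fcrls was lower at 2 and 8 months (-0.62 and -0.79) and Itgam at 6 months (-0.62). Trem2, the receptor that binds ApoE among other ligands, was higher at 4 and 6 months (0.61 and 0.65). At 8 months Trem2 was 0.58 (FDR 1.14e-05), just under 1.5 fold. At 6 months 0 of 5 neuron, 0 of 8 oligodendrocyte, 1 of 8 endothelial and mural and 0 of 6 lymphocyte markers were up-regulated, and 1, 0, 3 and 1 were down-regulated. The part of these shifts in the changes of the 8 genes was not tested.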

How the data were processed

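Microglia RNA of 2 genotypes at 4 ages was sequenced, and groups and replicate numbers came from the labels. The deposited values are log2 gene signals: the authors added up the reads of each exon, dropped an exon when over 80% of samples had under 10 counts, merged exons into genes by robust linear regression, and median normalized on the log2 scale. The submitters' processing notes name genome build GRCm38. The aligner and annotation are not given in the sources used here. The deposited table holds no read totals, and the methods give a single approximate depth for all samples, so counting error was not computed per library and the number of libraries limits the precision.

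Under R 4.3.3, limma 3.58.1 served to fit a linear model per gene on 28 libraries with 8 group means, unmoderated variances and 20 residual degrees of freedom. FDR values were Benjamini-Hochberg adjusted over 18588 genes within a contrast, without a filter, and intervals are 95%. The model was tested on simulated data. The methods describe the libraries of a group as biological replicates made from pooled forebrains, and p-values measure the spread between these libraries. No columns were left unused (0). RefSeq (GRCm38.p6) named 95.9% of the Entrez numbers. Motifs and figures used Python 3.11.15, numpy 2.4.6 and matplotlib 3.10.9.

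Members and lists were chosen with earlier results of these data known. Named genes are the 8 members, the 3 genes most like each, up to 4 DEGs of each list at 6 months (the largest increase and decrease, then by size), marker genes, and, chosen after their values were seen, Cyp27a1, Gpr183, Srebf1, Scd2, Mylip, Stard3, Apoa2 and the neighbours of Apoe. Some genes that this rule selects are not reported here. Same-numbered libraries of both genotypes were checked for pairing by correlating deviations from the group means across genes, and r lay between 0.0649 and 0.167 (2 months), -0.0999 and 0.124 (4 months), 0.131 and 0.153 (6 months), and 0.15 and 0.291 (8 months). Pairs of unlike number had r of -0.194 to 0.0816, -0.0709 to 0.154, -0.127 to 0.0913 and -0.259 to -0.0281 at 2, 4, 6 and 8 months. Same-numbered pairs thus stood apart at 6 and 8 months only. The main fit held no block at any age, and the replicate block paired same-numbered libraries at all 4 ages. A second version, with deviations scaled by each gene's residual SD, was also computed. For same-numbered pairs it gave a lowest r of 0.0256, -0.115, 0.0948 and 0.134. Alternatives were moderated variances, all 32 libraries, only the groups compared, quantile and 75th percentile normalization, a filter on low genes, each library left out, a replicate block and, added after seeing the data, low values raised to the 3-count level.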

Additional observations from a re-analysis of the deposited data

Results flagged for a closer look

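In 2 of 32 groups of 4 libraries that were examined, 1 library stood apart by Dixon's test, which chance does in about 1 of 20 groups. Abca1 in replicate 1 of WT at 2 months was 8.49, beside 8.64 to 8.66 in the other 3. Nr1h2 in replicate 1 of rTg4510 at 6 months was 6.06, beside 6.16 to 6.17.

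The genotype effect differed between 4 and 2 months for 5 genes, by 2.34 for Apoe, 3.09 for Apoc1, 3.21 for Lpl, 0.70 for Abcg1 and 2.97 for Ch25h on the log2 scale, with FDR values between 1.55e-08 and 0.00215 in limma's interaction test.

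The 2 rTg4510 libraries that the authors excluded for failed sequencing quality lay above all WT libraries of their age for most of the genes. The share of all genes for which these libraries did so was not computed. A position above WT in a single library is therefore a description only, and Nr1h3, which was not a DEG, is among the genes listed. Replicate 3 of 4 months had Apoe at 13.4 (highest WT library 10.09), Apoc1 at 7.00 (2.96), Lpl at 10.56 (5.94), Ch25h at 11.64 (7.92), Abca1 at 9.02 (8.91) and Nr1h3 at 5.69 (4.56). Its Abcg1 signal was 6.45, within the WT range and below the 7.11 to 7.49 of the other 3 libraries. Replicate 4 of 8 months had Apoe at 13.54 (10.39), Apoc1 at 8.22 (3.48), Lpl at 9.20 (6.43), Ch25h at 10.2 (8.19), Abca1 at 9.41 (8.79) and Abcg1 at 7.03 (6.65).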

How the results depend on the processing

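The up-regulation of Apoe, Apoc1, Lpl, Abcg1 and Ch25h at 4, 6 and 8 months kept its direction and its call under all alternatives that were run, the filter on low genes leaving out Nr1h3. The count of genes up-regulated at 2 months (3 of 8) was 1 under quantile normalization and ranged from 1 to 3 with a library left out, being 1 without rTg4510 replicate 1 or 3. Lpl was the gene that stayed. At 2 months Apoe was 0.46 under quantile normalization and 0.58 with libraries scaled to their 75th percentile, both under 1.5 fold, and Apoc1 had an FDR of 0.0664 with all 32 libraries, 0.134 with only the groups compared and 0.0611 under quantile normalization. With all 32 libraries the Abcg1 effect grew by 0.51 between 2 and 4 months (FDR 0.174), the rise of Apoe from 4 to 6 months in rTg4510 was 0.59 (FDR 0.0575) and that of Abcg1 from 2 to 4 months 0.46 (FDR 0.035). With only the groups compared the FDR of that Apoe rise was 0.0917. With low values raised to the 3-count level Apoc1 at 2 months was 0.54, under 1.5 fold, and its rise from 4 to 6 months in rTg4510 became a DEG (FDR 0.0219). Over all genes quantile normalization gave 213 up-regulated and 99 down-regulated DEGs at 2 months, beside 293 and 75.

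Among the values reported here, signs turned only where neither of the fits compared passed. With all 32 libraries these were Nr1h2 at 4 months (-0.11), Nr1h3 at 8 months (-0.09), and the genotype effect of Nr1h2 between 2 and 4 months (-0.05) and of Abcg1 between 4 and 6 months (0.16). Under quantile normalization Nr1h3 at 6 months was 0.07 and Apoe from 6 to 8 months in rTg4510 0.02, and under 75th percentile scaling Nr1h2 at 4 months was -0.02. With a library left out Nr1h3 lay between -0.32 and 0.14 at 2 months, between -0.42 and 0.08 at 6 months and between -0.03 and 0.66 at 8 months, Nr1h2 between -0.05 and 0.06 at 4 months, and the Abcg1 effect from -0.14 to 0.06 between 4 and 6 months and from -0.13 to 0 between 6 and 8 months. The cause was not tested.

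The replicate block changed no DEG call among the 44 results it was run for, but the genotype effect of Abca1 between 2 and 4 months no longer passed the FDR alone (0.0739 in place of 0.0392). With it Apoe at 6 months was 3.60. Pairing of the libraries by number rests on the values alone, which set same-numbered pairs apart at 6 and 8 months only. Read totals per library are not in the table, and values within 3 counts of the lowest limit Apoc1, Apoc2, Apoc4 and Rxrg in WT.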
